A study of Mus musculus with 3 samples.

Results

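The CCN genes were examined in RNA-seq of mouse embryo fibroblasts (MEFs) as the 6 rows of the count table that carry their older symbols, Cyr61 (Ccn1), Ctgf (Ccn2), Nov (Ccn3), Wisp1 (Ccn4), Wisp2 (Ccn5) and Wisp3 (Ccn6), out of 21782 genes listed. MEFs are fibroblasts cultured from mouse embryos, here from E12.5 embryos, grown in DMEM with 20% FBS at 37 °C and 5% CO2 and harvested while cycling asynchronously. All 3 samples were wild type (WT) controls, 1 polyA-selected library from each of 3 clones, and the labels name no strain, no sex and no embryo for a clone. They are of 1 condition, so the comparisons are between the family members and between the clones, and a p-value measures only how the 3 libraries differ. Of the 6 genes, 5 were expressed and Wisp3 was not detected beyond a single count.

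CCN proteins are matricellular proteins, which are secreted into the extracellular matrix and act on cells through integrins, heparan sulfate proteoglycans and low density lipoprotein receptor-related proteins rather than as structural fibers. A complete member is built from an insulin-like growth factor-binding protein module, a von Willebrand factor type C module, a thrombospondin repeat and a C-terminal cystine knot. CYR61 and CTGF are widely used as readouts of the transcriptional coactivators YAP and TAZ with TEAD factors, CTGF also as a readout of TGF-beta signaling, and the names of the WISP genes refer to induction by WNT1.

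The thrombospondin repeat carries a stretch of codons that can be read in all 6 members, and it is shown because counts of related genes can be trusted only where reads can tell them apart. In the GENCODE M21 transcripts with the longest coding sequence, a tryptophan codon followed by the spaced codons of cysteine, serine, cysteine and glycine (in capitals) occurred exactly 1 time per coding sequence.
Ctgf, codons 205 to 214: TGGagcgccTGTTCTaagaccTGTGGGatg
Cyr61, codons 234 to 243: TGGtcccagTGCTCCaagagcTGCGGAact
Nov, codons 210 to 219: TGGagcgcaTGTTCCaagagcTGTGGAatg
Wisp1, codons 223 to 232: TGGagccccTGCTCTaccaccTGTGGCcta
Wisp2, codons 202 to 211: TGGggccccTGCTCAaccaccTGTGGGttg
Wisp3, codons 216 to 225: TGGactcccTGCTCCagaacgTGCGGAatg
Over these 30 bases, Nov shared 26 with Ctgf, Wisp1 and Wisp2 shared 23 each, Wisp3 shared 20 and Cyr61 shared 18. The search required the amino acids of the codons in capitals, so part of this sharing was fixed in advance. The coding sequence of Wisp2 was the shortest, with 251 codons of which 29 encode cysteine. The other 5 members had 348 to 379 codons and 37 to 40 cysteine codons. WISP2 is the member without the C-terminal cystine knot.

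No stretch of 86 nt, the length of the sequenced reads, from any member matched another CCN gene within 2 mismatches, so the 6 counts do not share reads within the family. Cyr61, Nov, Wisp1 and Wisp2 also shared no such stretch with any other annotated transcript. Of the stretches of Ctgf, 16.5% matched Gm15270, a noncoding gene on the opposite strand whose exons cover 665 bp of Ctgf and which is not listed in the table. Of the stretches of Wisp3, 30.1% matched Tube1, a tubulin gene on the opposite strand. The sources used here do not state whether the counting used strand, and the counts of Ctgf and Wisp3 are less certain for that reason.

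In the mouse genome (GRCm38), chromosome 10 holds both Ctgf (24595442 to 24598683, plus strand) and Wisp3 (39150970 to 39163794, minus strand). Cyr61 is a minus-strand gene of chromosome 3 (145646976 to 145649981). Nov (54745702 to 54754039) and Wisp1 (66891320 to 66923201) both lie on the plus strand of chromosome 15, and Wisp2 is a plus-strand gene of chromosome 2 (163820861 to 163833146). The transcript with the longest coding sequence had 5 exons in every member. Union exon length ranged from 1419 bp for Wisp3 to 5565 bp for Wisp1, whose transcript has 3747 nt after the stop codon.

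Total counts on genes were 25261357, 22594316 and 24791198 in clones 1, 2 and 3, and together the 6 CCN genes took 0.887%, 0.883% and 0.812% of them. Levels are given as CPM, the counts of a gene per 1000000 counts after TMM scaling of the library sizes, and levels of different genes are compared as CPM per kb of annotated exon. Shares of the CCN counts are shares of reads, to which a longer transcript gives more. Of all genes listed, 52.2% reached 1 CPM in every clone, and 5 of the 6 CCN genes did.

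Ctgf, which encodes connective tissue growth factor, was counted 154052, 126951 and 132441 times in clones 1 to 3. This is 5691 ± 481 CPM (SD, n = 3 clones). Per kb of exon it reached 2167, 1968 and 1833 CPM in the same clones, the highest level of the family in each. It ranked 9 per kb among the 21710 genes that could be given a length, and 13 by CPM with no length among all genes listed.

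Cyr61, an immediate early gene whose product binds integrins, was counted 51866, 57555 and 52962 times in clones 1 to 3, for a mean of 2246 ± 266 CPM (SD, n = 3). Its level per kb was 1034, 1264 and 1039 CPM, which placed it at rank 22, against rank 35 by CPM with no length. Clone 2 was the highest, and the other clones were close to each other.

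Wisp1, whose product is a secreted factor of mesenchymal cells, had 15043, 11536 and 13780 counts in clones 1, 2 and 3, or 554 ± 47.5 CPM (SD, n = 3). Per kb it stood at 109, 91.9 and 98.0 CPM. It was the third of the family in every clone.

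Wisp2, the member that lacks the cystine knot, had 2348, 1989 and 1386 counts, or 79.2 ± 21.3 CPM (SD, n = 3). Its level per kb was 49.1, 45.8 and 28.5 CPM, with clone 3 below the other clones. Nov, named for its overexpression in nephroblastoma, had 853, 1409 and 665 counts, or 41.0 ± 19.0 CPM (SD, n = 3). Its level per kb was 11.97, 21.8 and 9.18 CPM, and clone 2 stood above the other clones.

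Wisp3, which is linked to a cartilage disorder in humans, had 0, 0 and 1 counts in clones 1, 2 and 3. Expression of Wisp3 was not detectable at this depth, where the count of 0 in clones 1 and 2 still allows up to 3 counts, or 0.121 and 0.133 CPM. Tube1, with which it shares sequence, had 48, 75 and 74 counts.

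**Figure D1:**
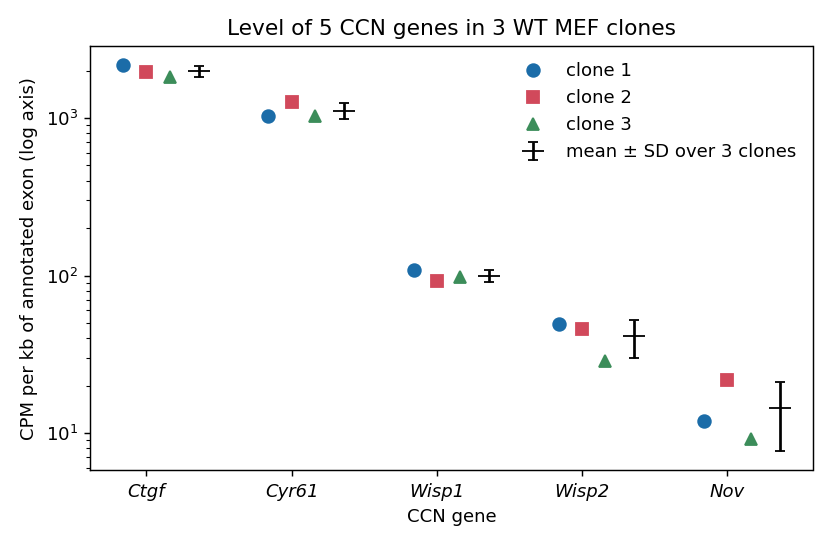
Level of the 5 detected CCN genes in CPM per kb of annotated exon (log axis), with 1 point per WT MEF clone and the mean ± SD over the 3 clones in black. The genes form steps from Ctgf, at 1989 ± 168 CPM per kb, down to Nov, at 14.3 ± 6.62 CPM per kb, and the points of neighbouring genes do not overlap.

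The order per kb was Ctgf, Cyr61, Wisp1, Wisp2 and Nov, and each gene exceeded the next one in 3 of 3 clones. Ctgf was 2.10-fold, 1.56-fold and 1.76-fold above Cyr61 per kb in clones 1, 2 and 3, a mean difference of 0.84 ± 0.22 on the log2 scale (SD, n = 3). The step from Cyr61 to Wisp1 was the widest, at 3.48 ± 0.27 on the log2 scale, and was 11.1-fold as a geometric mean. Wisp1 was 2.22-fold, 2.01-fold and 3.44-fold above Wisp2. Wisp2 was 4.10-fold, 2.10-fold and 3.11-fold above Nov, 1.58 ± 0.48 on the log2 scale. Every step was larger than its SD over the clones, although an exact paired permutation test (two-sided) of 3 pairs cannot give a p-value below 0.25.

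The mix of the family differed between clones by more than counting error. Ctgf took 68.7% of the CCN counts in clone 1 (95% Wilson interval 68.5 to 68.9), 63.7% in clone 2 (63.4 to 63.9) and 65.8% in clone 3 (65.6 to 66.0). Cyr61 took 23.1% (23.0 to 23.3), 28.9% (28.7 to 29.1) and 26.3% (26.1 to 26.5). These genes held most of the CCN counts, so the share of one falls where that of the other rises. In CPM, Ctgf was lowest in clone 3 (5244) and not in clone 2 (5630), where Cyr61 was highest. Counts of Ctgf per count of Cyr61 were 2.97, 2.21 and 2.50, a ratio within each library that does not depend on library scaling. The Wilson intervals cover counting error only.

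Wisp1 held 6.71%, 5.78% and 6.85% of the CCN counts, and 3.23%, 2.71% and 3.26% once counts were divided by exon length. Wisp2 held 1.05%, 0.997% and 0.689%, and Nov held 0.381%, 0.706% and 0.330%. The Nov share in clone 2 (95% Wilson interval 0.671 to 0.744) lay above its intervals in clone 1 (0.356 to 0.407) and clone 3 (0.306 to 0.356). The Wisp2 intervals of clone 1 (1.01 to 1.09) and clone 2 (0.955 to 1.04) overlapped, and that of clone 3 (0.654 to 0.726) lay below both.

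To ask which members differed between clones, the 3 counts of each gene were set against the scaled library sizes with a chi-square test (2 degrees of freedom, Benjamini-Hochberg adjustment over 12608 genes with a mean of at least 10 counts). All 5 detected members were called at an adjusted p-value under 0.05, against 62.2% of all genes tested. Among the genes with at least the mean count of Nov, 81.8% were called. Called and highest in clone 1 were 3 members (Ctgf, Wisp1 and Wisp2), against 23.5% of all genes tested, and called and highest in clone 2 were Cyr61 and Nov, against 23.6%. No member was highest in clone 3, against 15.1% called there. Without clone 1, 2 or 3, the members called numbered 5, 4 and 5, against 32.1%, 45.1% and 53.0% of all genes and 47.0%, 66.3% and 70.4% of the genes with at least the count of Nov. At these counts most genes pass, and the sizes of the differences follow.

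Ctgf, Wisp1 and Cyr61 had ranges near the median of all genes tested, which include genes with a mean of only 10 counts. The highest clone exceeded the lowest 1.18-fold for Ctgf (chi-square 2036), 1.18-fold for Wisp1 (chi-square 194, adjusted p = 1.06e-41) and 1.22-fold for Cyr61 (chi-square 1474), where the median over all genes tested was 1.25-fold. For Ctgf and Cyr61 the adjusted p-value was too small for the software to compute and was returned as 0. The range of log2(CPM + 1) was smaller in 41.5% of all genes tested than for Ctgf, in 41.8% than for Wisp1 and in 51.1% than for Cyr61.

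The 3 genes did not vary in the same way. Ctgf and Wisp1 were highest in clone 1, whereas Cyr61 was highest in clone 2 and close to level in the others, at 2088 CPM in clone 1 and 2097 CPM in clone 3. Without clone 2, Cyr61 was no longer called (adjusted p = 0.591). Without clone 1, the difference that remained was 1.07-fold for both Ctgf and Wisp1, but in opposite directions. Ctgf was higher in clone 2 and Wisp1 in clone 3.

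Nov varied most, with a 2.37-fold difference between clones 2 and 3 (chi-square 420, adjusted p = 2.71e-90), and it was the only member past 2-fold, against 9.26% of all genes tested. Its range was larger than that of 97.2% of all genes tested. The biological coefficient of variation that edgeR assigned to Nov was 0.298, compared with 0.116 for Ctgf, 0.117 for Wisp1, 0.126 for Cyr61, 0.209 for Wisp2 and a median of 0.161 over all genes tested. Without clone 2, Nov differed 1.30-fold between clones 1 and 3 (adjusted p = 1.64e-06) and its mean was 30.3 CPM.

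Markers of macrophages moved in the same direction as Nov. All 10 macrophage markers listed were called and highest in clone 2, against 23.6% of all genes tested. Their summed level was 259.6, 1292 and 231.1 CPM in clones 1, 2 and 3, and none of the markers was at 0. The 6 proliferation markers were also all called and highest in clone 2, against the same 23.6%, with summed levels of 368, 723 and 609 CPM. The part of either in the level of Nov was not tested, and in bulk RNA a change in the number of cells of a type and a change of RNA per cell cannot be told apart.

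Wisp2 was 1.72-fold higher in clone 1 than in clone 3 (chi-square 287, adjusted p = 1.43e-61), and its range exceeded that of 91.0% of all genes tested. Clones 1 and 2 were close, at 94.5 and 88.2 CPM, and without clone 3 the difference was 1.07-fold (adjusted p = 0.0452). Of the 8 cartilage markers tested, 6 were called, against 62.2% of all genes tested. Called and highest in clone 1 were 4 of the 8, against 23.5%. The summed level over the 9 cartilage markers listed was 87.5, 73.9 and 60.9 CPM, and none was at 0 in every clone. Col9a1 (111, 54 and 8 counts), Col9a2 (100, 39 and 4 counts) and Col11a2 (446, 190 and 132 counts) were highest in clone 1 and lowest in clone 3, as was Wisp2. Acan, the cartilage marker with the highest level at a mean of 43.5 CPM, differed only 1.15-fold (1120, 1027 and 1004 counts). Called and highest in clone 2 in CPM were 2 of the 8, Acan and Sox9 (230, 288 and 271 counts), against 23.6% of all genes tested. Comp was lowest in clone 2 (109, 24 and 48 counts), and Matn3 had 35, 34 and 56 counts. Their part in the level of Wisp2 was not tested.

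All 9 fibroblast markers were expressed, against 52.2% of all genes listed, and all 9 were called, against 62.2% of all genes tested. Called and highest in clone 1 were 6 of the 9, against 23.5% of all genes tested. The other 3, Pdgfra, Thy1 and Vim, were called and highest in clone 2, against 23.6%. Summed levels of the 9 were 56794, 47171 and 45748 CPM, mostly from Col1a1 and Col1a2, at means of 27713 and 14380 CPM. Lum stood at 2.03 CPM and Dcn at 7.73 CPM. Of 6 endothelial markers, 2 could be tested and both were called, against the same 62.2%. Pecam1 and Cdh5 had at most 15 and 6 counts and Cldn5 had 0 in every clone, but Emcn had 307, 4 and 242 counts and Kdr 163, 214 and 314 counts. Of 6 epithelial markers, 4 could be tested and all were called, again against 62.2%. Epcam and Cdh1 had at most 5 counts each, but Krt19 had 433, 842 and 575 counts, highest in clone 2. The other 3 markers tested were highest in clone 3, Krt8 with 6, 9 and 28 counts, Krt18 with 69, 67 and 134 counts and Cldn4 with 65, 14 and 82 counts. The part of these cell types in the CCN levels was not tested.

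**Figure D2:**
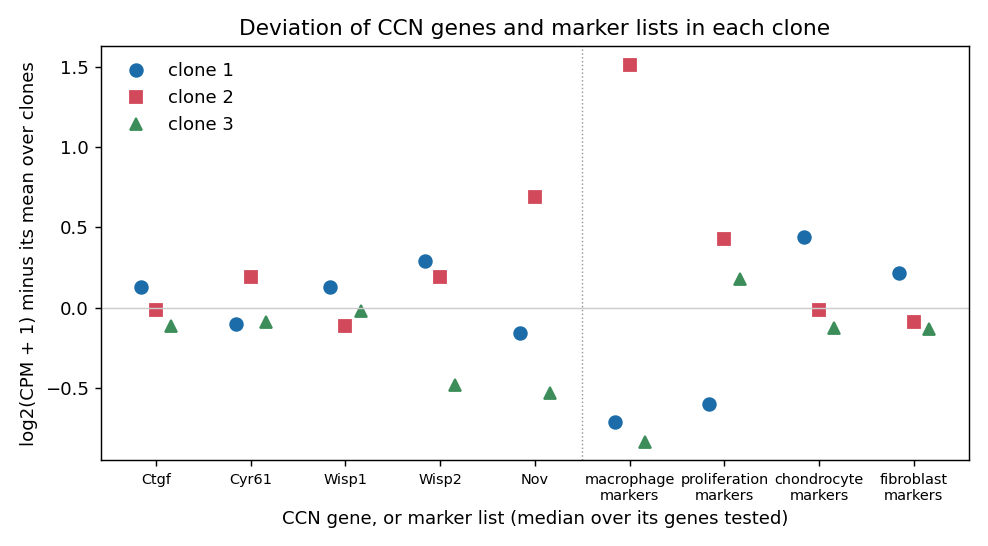
Deviation of log2(CPM + 1) from its mean over the 3 WT MEF clones for the 5 detected CCN genes (left of the dotted line) and, as the median over the genes tested, for 4 marker lists (right). Nov stands 0.69 above its mean in clone 2, where macrophage markers stand 1.51 above theirs, and Wisp2 stands 0.48 below its mean in clone 3.

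**Figure D3:**
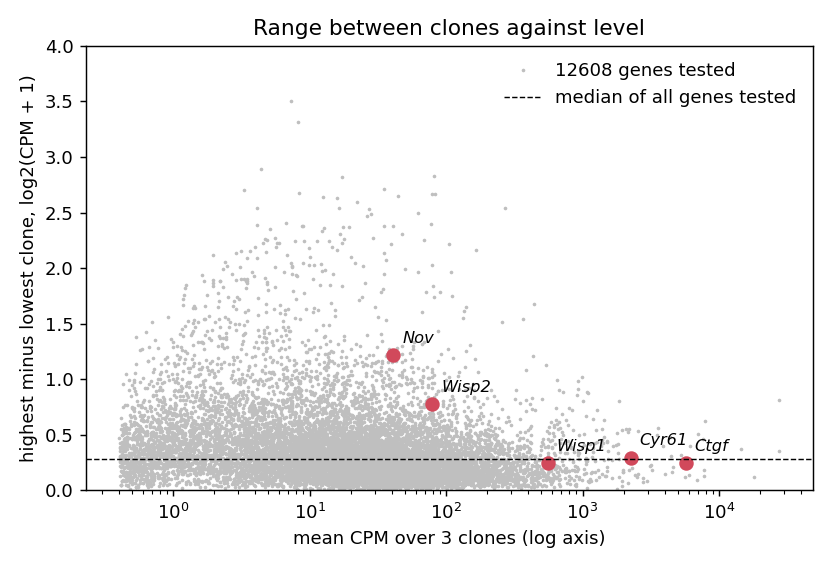
Highest minus lowest clone in log2(CPM + 1) against mean CPM over 3 clones (log axis) for all 12608 genes tested (gray) and the 5 detected CCN genes (red), with the median of all genes dashed at 0.28. Ctgf, Cyr61 and Wisp1 lie near the median, and Nov and Wisp2 lie at 1.22 and 0.77.

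For each member, the genes with the most similar pattern were sought as the smallest Euclidean distance between the deviations in the 3 clones, with genes under a mean of 10 CPM left out. With 3 clones many genes share a flat pattern, and 743 of 8389 genes lay within 0.1 of Ctgf, 1078 within 0.1 of Wisp1 and 308 within 0.1 of Cyr61. For Ctgf, the nearest were Osbpl9, Tmem175 and Cactin, all within 0.004. For Wisp1, they were Dalrd3, Wdtc1 and Pnkd, and for Cyr61 they were Orai1, Yeats4 and Znfx1. Uneven patterns had few neighbours. Only 3 genes lay within 0.1 of Nov, among them Irx1 (342, 551 and 268 counts) and Igfbp4 (2899, 4599 and 2367 counts). For Wisp2 there were 4, and the nearest were Col7a1 (23119, 20569 and 14021 counts), Fcgrt and Arhgef28. Within the family, the closest pair was Ctgf and Wisp1, at a distance of 0.138, and the farthest was Nov and Wisp1, at 0.991.

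The machinery through which YAP and TAZ act was expressed throughout. All 16 genes of this list reached 1 CPM in every clone, and Tead1, at 256 ± 18.2 CPM, Yap1, at 204 ± 8.99 CPM, and Tead2, at 107 ± 4.95 CPM (SD, n = 3), were among them. Of the 16 genes, 10 were called, against 62.2% of all genes, with a median range of 0.20 on the log2 scale against 0.28 over all genes tested. Among the called genes, the widest ranges were those of Mob1b, 1.41-fold, and Mob1a, 1.27-fold, which encode activators of the LATS kinases, and 0 genes passed 2-fold. Without clone 1, 1 of the 16 was called, against 32.1% of all genes. Wwtr1, the gene of TAZ, had 2196, 2131 and 2286 counts and was not called (adjusted p = 0.119).

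Of 22 genes outside the family regarded as YAP and TEAD targets, 17 were called, against 62.2% of all genes tested and 81.8% of those with at least the count of Nov, with a median range of 0.29 on the log2 scale. Of the 22 genes, 11 were called and highest in clone 1 (23.5% of all genes tested were), as were Ctgf and Wisp1. In clone 2 there were 4 (23.6%), as with Cyr61 and Nov, and in clone 3 there were 2 (15.1%). Axl, a receptor tyrosine kinase, reached 1415 ± 216 CPM and was highest in clone 2. Crim1 stood at 497 ± 26.7 CPM and Myof at 485 ± 10.4 CPM (SD, n = 3). The widest ranges were those of Nt5e, at 322, 110 and 258 counts, and Gadd45a, at 734, 278 and 346 counts. Per kb of exon, Ctgf and Cyr61 stood above Axl, which had 281 ± 42.9 CPM per kb. Without clone 1, 10 of the 22 genes were called, against 32.1% of all genes.

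A list of 18 genes held Srf, genes of its coactivators, SRF targets and immediate early genes, the class to which Cyr61 belongs. Of the list, 17 were called, against 62.2% of all genes tested and 81.8% of those with at least the count of Nov. Acta2, at 6855 ± 222 CPM, Tpm1, at 3167 ± 275 CPM, and Tagln, at 2768 ± 104 CPM (SD, n = 3), encode contractile proteins, and their highest clones exceeded the lowest 1.07-fold to 1.17-fold. The widest ranges were those of Fosb, at 2881, 651 and 1083 counts, and Fos, at 3432, 1141 and 1897 counts, both highest in clone 1. Of the 18 genes, 9 were called and highest in clone 1, against 23.5% of all genes tested. A further 6 were called and highest in clone 2, against 23.6%, and 2 in clone 3, against 15.1%. Srf (2610, 3184 and 3391 counts), Jun (2643, 3425 and 3184 counts) and Fosl1 (592, 908 and 854 counts) were lowest in clone 1 and highest in clone 2 in CPM. Cyr61 was also highest in clone 2, but its clones 1 and 3 were close to level, at 2088 and 2097 CPM.

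In the TGF-beta list, 11 of 14 genes were called, against 62.2% of all genes tested and 81.8% of those with at least the count of Nov, and 7 were called and highest in clone 2, against 23.6%. The ligand Tgfb3 stood at 545 ± 28.1 CPM (SD, n = 3). Tgfb1 was 1.64-fold higher in clone 2 than in clone 3, and Ltbp2 was 1.85-fold higher in clone 1 than in clone 2. Smad2, Smad3 and Skil were not called, with adjusted p-values of 0.824, 0.753 and 0.686.

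In the Wnt list, 12 of 14 genes had enough counts for the test and 6 were called, against 62.2% of all genes tested, or 3 without clone 2, against 45.1%. Ctnnb1, the gene of beta-catenin, had 14351, 13453 and 15150 counts, Lrp5 stood at 132 ± 8.32 CPM and Wnt5a at 127 ± 18.3 CPM (SD, n = 3). Of the negative feedback genes of the pathway, Axin2 had 26, 26 and 25 counts, Nkd1 had 68, 26 and 54 counts and Nkd2 had 94, 130 and 112 counts.

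Genes of proteins to which CCN proteins bind were abundant. In this list 16 of 17 genes were expressed and all 16 were called, against 62.2% of all genes tested and 81.8% of those with at least the count of Nov, with a median range of 0.56 on the log2 scale. Bgn, a proteoglycan, reached 7723 ± 485 CPM, Itgb1 4522 ± 284 CPM and Hspg2, the gene of perlecan, 3557 ± 801 CPM (SD, n = 3). The widest ranges were those of Itgb2, at 227, 1139 and 190 counts, and Itgam, at 321, 1403 and 306 counts, which encode the 2 chains of a leukocyte integrin and were highest in clone 2, as were the macrophage markers. Without clone 2, 13 of these genes were called, against 45.1% of all genes.

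Among 10 other matricellular genes, 9 were called, against 62.2% of all genes tested and 81.8% of those with at least the count of Nov, with a median range of 0.50 on the log2 scale. Per kb of exon, Thbs1 stood at 2967 ± 134 CPM, Sparc at 2033 ± 99.9 CPM and Tnc at 901 ± 188 CPM (SD, n = 3), so that Ctgf, at 1989 ± 168 CPM per kb, lay below Thbs1 and differed from Sparc by less than the spread between clones. The widest ranges were those of Spp1, 1.75-fold, and Tnn, 2.97-fold, which had 65, 175 and 109 counts.

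**Figure D4:**
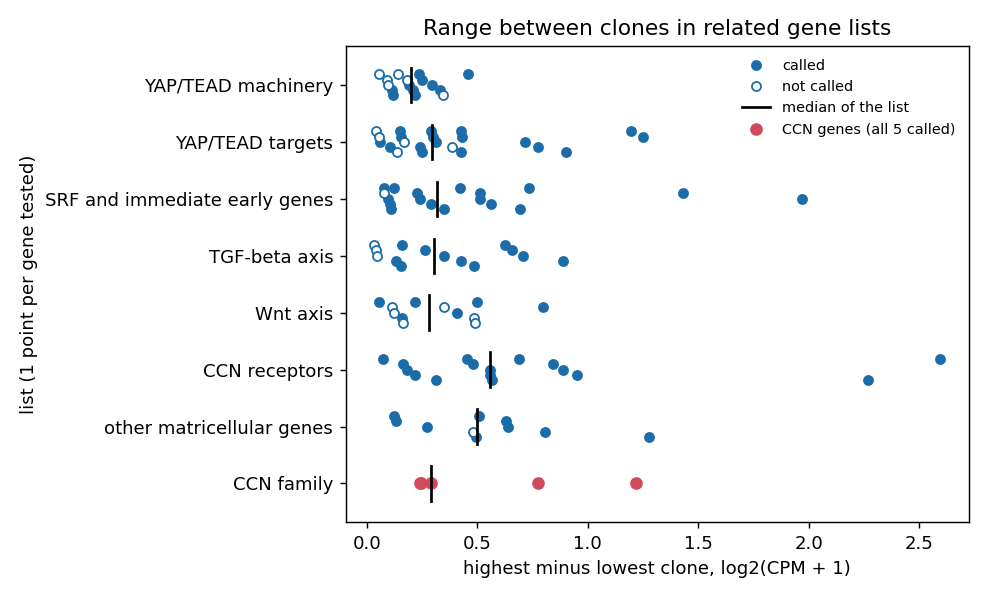
Range between clones, as highest minus lowest log2(CPM + 1), for each gene tested in 7 related lists (blue, filled where called and open where not) and for the 5 detected CCN genes (red), with black bars at the medians. Medians run from 0.20 in the YAP/TEAD machinery to 0.56 in the CCN receptors, and that of the CCN family is 0.29.

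Promoter sequence from RefSeq (GRCm38.p6) was at hand for 2 members, Cyr61 and Wisp3, the member at rank 22 per kb and the member without detectable expression. The 250 bases before each start site are shown on the strand of the gene, Cyr61 at chr3:145649986-145650235 and Wisp3 at chr10:39163795-39164044, both on the minus strand. Capitals mark matches to motifs searched on both strands, which were the TEAD motif CATTCC, the TATA box TATAAA, a short CREB motif spelled TGACG, the AP-1 motif TGANTCA, the SMAD motif CAGAC and the CArG box of SRF.
Cyr61: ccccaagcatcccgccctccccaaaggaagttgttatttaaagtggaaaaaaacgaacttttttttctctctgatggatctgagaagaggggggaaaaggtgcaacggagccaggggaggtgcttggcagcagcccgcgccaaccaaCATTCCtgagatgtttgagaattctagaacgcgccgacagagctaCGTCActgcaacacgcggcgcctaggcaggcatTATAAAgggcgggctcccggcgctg
Wisp3: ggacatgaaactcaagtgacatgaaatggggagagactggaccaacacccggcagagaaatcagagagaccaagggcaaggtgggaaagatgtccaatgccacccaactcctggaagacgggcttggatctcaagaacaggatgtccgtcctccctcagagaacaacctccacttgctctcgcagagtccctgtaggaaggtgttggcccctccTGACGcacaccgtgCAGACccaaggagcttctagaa
The Cyr61 window held CATTCC from -103 to -98, the reverse complement of TGACG from -58 to -54 and TATAAA from -25 to -20, counted from the base before the start site. The Wisp3 window held TGACG from -36 to -32 and CAGAC from -22 to -18, and none of the other letters searched. Of 32851 promoter windows of this length, 12.6% held CATTCC, 12.4% TATAAA, 17.8% TGACG, 6.75% TGANTCA, 42.2% CAGAC and 1.47% a CArG box on either strand. GC content was 54.8% in both windows.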

How the data were processed

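RNA of 3 WT MEF clones, 1 library each, was analysed. The authors aligned single-end reads, allowing multi-hits, with TopHat2 (version 2.0.0), SAMtools (0.1.16) and Bowtie (0.12.7), and HTSeq counted them on mm10 genes, whereas the processing notes in the labels name mm9. The annotation and the strand setting are not given in the sources used here. The authors deposited unnormalized counts of reads for each gene symbol, 1 column per clone.

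CPM used TMM factors of edgeR 4.0.16 in R 4.3.3 (0.984, 0.998 and 1.02 in clones 1, 2 and 3). With 1 library per clone and 1 condition, no quasi-likelihood test has residual degrees of freedom, so genes with a mean of at least 10 counts went into a chi-square test with 2 degrees of freedom, whose expected counts follow TMM-scaled library size. Calls had p under 0.05 after Benjamini-Hochberg adjustment. The test covers counting error only, and clone, culture and library cannot be told apart. It was tested on simulated data. Shares have 95% Wilson intervals. Coefficients of variation come from an edgeR fit with an intercept only over 12608 genes.

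Exon lengths, transcripts and positions were taken from GENCODE M21 (GRCm38), in which 21117 symbols of the table were found and another 593 through RefSeq synonyms. The genes named are the 6 members, the 3 genes nearest to each member, the 3 genes of each of 7 lists with the highest CPM and the 2 called genes with the widest range, and genes overlapping a member. Axin2, Wwtr1, Srf, Jun, Fosl1, Smad2, Smad3, Skil and the single markers were named after their values were seen. Some genes that this rule selects are not reported here. The members and lists were chosen with earlier results of these data known. Of the marker genes, 2 were not found in the table. Python 3.11.15 and scipy 1.17.1 were used. The alternatives tried were size factors of DESeq2 1.42.0, unscaled totals, other filters, pseudocounts, lengths and leaving out each clone. The share called among genes with at least the count of Nov, and the lists without each clone, were added after seeing the data.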

Additional observations from a re-analysis of the deposited data

How the results depend on the processing

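All 5 detected members were called with DESeq2 size factors, with total counts, with a minimum of 10 counts required of each clone and with no filter, and the order of the clones was the same for each member under both scalings. Leaving out each clone gave 4 to 5 called members, and 4 without clone 2, where Cyr61 was lost. The difference between clones on the log2 scale then ran from 0.0064 to 0.29 for Cyr61. Between 62 and 82 distinct genes of the 7 lists were called when a clone was left out, against 84 with all clones. Dividing counts by length moved the shares of the CCN counts by more than 1 SD, except that of Nov under both lengths and that of Ctgf by the longest-coding transcript. Per kb of all annotated exons, they were 34.2% for Cyr61, 61.1% for Ctgf, 3.07% for Wisp1 and 1.25% for Wisp2. Scaled instead by the length of the longest-coding transcript, they were 30.5% for Cyr61, 2.98% for Wisp1 and 1.25% for Wisp2. The order of the members held under every length. On the log2 scale, the step from Ctgf to Cyr61 was 1.10 by that length and 1.34 with no length, and with no length the steps were 2.02 from Cyr61 to Wisp1, 2.84 from Wisp1 to Wisp2 and 1.01 from Wisp2 to Nov. No paired analysis was possible because the 3 clones form 1 group and no other group shares their numbers. The steps between members were taken within each clone. Depth limits Wisp3 alone among the members, with counts of 0, 0 and 1.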
